A study of Homo sapiens with 8 samples.

Results

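The 10 genes described here are ligands and receptors of the tumour necrosis factor (TNF) superfamily, out of 63677 annotated genes in the deposited count tables. They were taken by symbol as a list of 5 ligands (TNF, LTA, LTB, FASLG and TNFSF10) and 5 receptors (TNFRSF1A, TNFRSF1B, FAS, TNFRSF10A and TNFRSF10B), with no measured value in the rule. All 10 symbols were found. TNF, LTA and LTB each stood for 7 or 8 gene identifiers, of which 1 held all the counts. The study exposed DND-41 and MOLT-4, established human lines of T-lymphoblastic leukaemia, to 100 nM ACBI-1 or to its solvent DMSO for 3 h. ACBI-1 is a degrader that brings SMARCA2, SMARCA4 and PBRM1, subunits of the BAF and PBAF chromatin remodelling complexes, to the VHL ubiquitin ligase. The 4 groups were DND-41 with ACBI-1, DND-41 with DMSO, MOLT-4 with ACBI-1 and MOLT-4 with DMSO, with 2 RNA-seq libraries each. The labels give no genotype beyond the name of the line, and all groups shared the same serum-supplemented medium.

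Ligands of this superfamily act as trimers, at the cell surface or after shedding, and their receptors either carry a death domain or recruit TRAF adaptors. TNF and lymphotoxin alpha (LTA) bind TNFRSF1A and TNFRSF1B. Lymphotoxin beta (LTB) holds lymphotoxin alpha at the membrane in a heterotrimer that binds LTBR, FASLG binds FAS, and TNFSF10 (TRAIL) binds TNFRSF10A and TNFRSF10B. TNFRSF1A, FAS, TNFRSF10A and TNFRSF10B have death domains and can lead to caspase-8 activation through FADD or TRADD, whereas TNFRSF1B lacks one. In T cells these genes are known for activation-induced death, for NF-κB signalling and, for the lymphotoxins, for the organisation of lymphoid tissue.

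Library totals lay between 19867779 and 20082524 counts. Levels are given as CPM, counts relative to the size of the library after scaling by the trimmed mean of M-values (TMM). A count of 0 allowed up to 3 counts, or 0.144 to 0.155 CPM, a limit for counting error only. The 2 DND-41 libraries with ACBI-1 differed from each other more than other replicates did, with a mean chi-square per gene of 15.6 against 2.99 to 5.10 in the other 3 groups. The library labelled DND-41 DMSO replicate 2 held 179 counts of 5 genes restricted to MOLT-4, or 0.542% of their MOLT-4 level, against 5 to 7 counts in the other DND-41 libraries. The 10 T-lineage markers summed to 4823 to 4871 CPM in DND-41 with ACBI-1 and 4794 to 4797 CPM with DMSO, and to 2713 to 2761 CPM in MOLT-4 with ACBI-1 and 2631 to 2683 CPM with DMSO. With DMSO, CD7 and CD3E averaged 2229 and 1432 CPM in DND-41, most of the sum there. CD2 and CD5 averaged 15.9 and 1.76 CPM in DND-41 with DMSO, against 106 and 154 CPM in MOLT-4. The pre-T-cell receptor gene PTCRA had at most 1 count in a DND-41 library. In DND-41 with DMSO the B-cell marker CD79A averaged 1715 ± 58.5 CPM (SD, n = 2), while MS4A1 was at 0. Myeloid cells are a main source of TNF in blood, and their 10 markers summed to 0.347 to 0.689 CPM over the 8 libraries, with LYZ, FCGR3A, S100A8 and S100A9 at 0 throughout.

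Most members that could be tested were lower with ACBI-1. In DND-41, 9 of the 10 passed the filter on low counts and 7 fell, namely TNF, TNFSF10, TNFRSF1A, TNFRSF1B, FAS, TNFRSF10A and TNFRSF10B. None rose, by edgeR's quasi-likelihood test at an adjusted p of 0.05, at an unadjusted p below 0.05 or with DESeq2, and LTA and LTB did not pass. Of all genes tested in DND-41, 6.05% fell and 3.78% rose, 9.83% in all. In MOLT-4, 5 members passed the filter and 5 fell, namely LTB, TNFSF10, TNFRSF1A, FAS and TNFRSF10B, and none rose by any of the same 3 criteria. Of all genes tested in MOLT-4, 6.94% fell and 3.9% rose, 10.8% in all. No share of all genes was drawn at an unadjusted p below 0.05, for the members or for any list. Counts at that cut are therefore descriptions. The median log2 fold change, ACBI-1 over DMSO, was -0.83 over the 9 tested members in DND-41 and -0.89 over the 5 in MOLT-4, while the median over all genes tested was 0.0029 in DND-41 and -0.00097 in MOLT-4. Both ACBI-1 libraries lay below both DMSO libraries for 8 of 9 members in DND-41 and 5 of 5 in MOLT-4, which held for 27.5% and 24.9% of all genes tested.

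These counts depended on single libraries and on the tool. A fit that left out 1 library had 1 library in that group. With any library left out, edgeR called fewer of all genes in that line, and as many members or fewer. The loss was greatest without an ACBI-1 library, over all genes as among the members. Over 12 alternatives the log2 fold change in DND-41 lay between -1.12 and -0.99 for TNF and between -0.64 and -0.44 for FAS. In MOLT-4 it lay between -1.22 and -1.16 for TNFRSF1A and between -0.91 and -0.40 for TNFRSF10B. Every member called in a line kept a negative log2 fold change there under all 12 alternatives. DESeq2 called 5 members in DND-41, without FAS (adjusted p = 0.0849) and TNFRSF10A (adjusted p = 0.0509), and 3 in MOLT-4, without TNFSF10 (adjusted p = 0.324) and TNFRSF10B (adjusted p = 0.242). Over all genes DESeq2 called 664 in DND-41 and 754 in MOLT-4, where edgeR called 1378 and 1568.

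**Figure D1:**
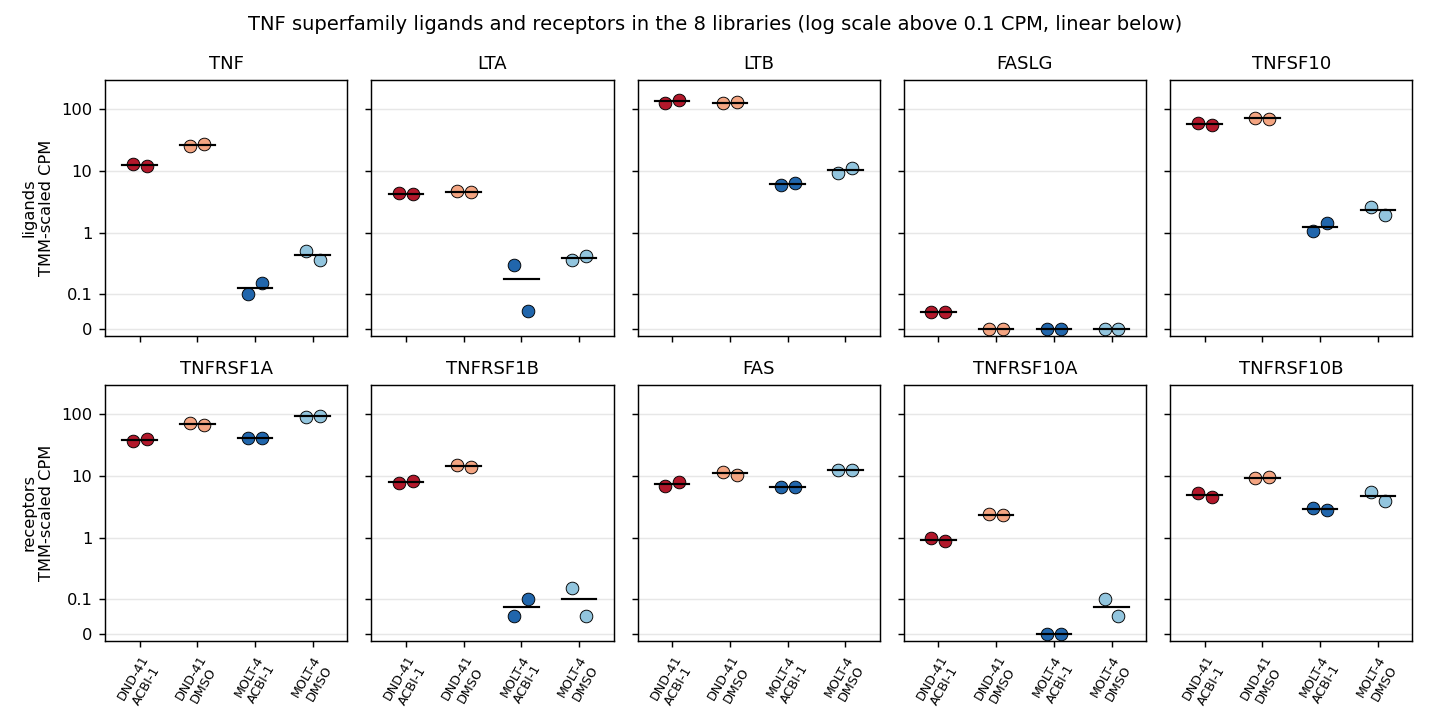
TMM-scaled CPM of each member in every library (points, 2 per group; bar, mean), on an axis that is logarithmic above 0.1 CPM and linear below. TNFRSF1A and FAS lay lower with ACBI-1 in both lines, while TNF, LTA, TNFRSF1B and TNFRSF10A had at most 10 counts in any MOLT-4 library.

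**Figure D2:**
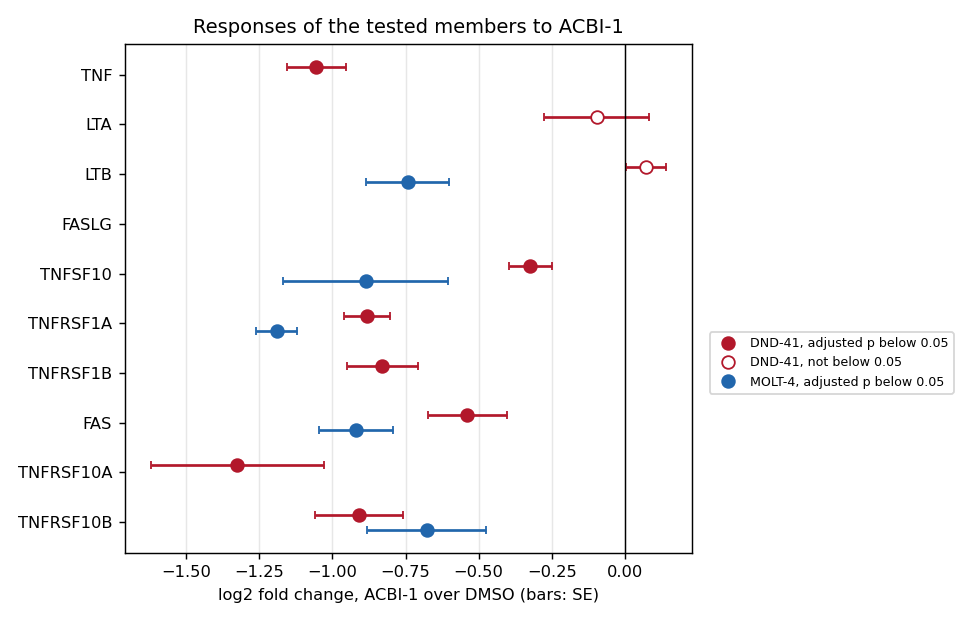
Log2 fold change, ACBI-1 over DMSO, with its SE, of the members tested in DND-41 and MOLT-4. All points past the threshold are negative, and those of LTA and LTB in DND-41, at -0.10 and 0.07, are the 2 that did not pass.

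Among the ligands, TNF, the founding cytokine of the family, was mostly a DND-41 transcript and was lower there with ACBI-1. It stood at 13.1 and 12.1 CPM in the DND-41 libraries with ACBI-1, against 25.7 and 27.2 CPM with DMSO. The groups did not overlap, and TNF fell by 1.06 ± 0.10 on the log2 scale (SE, n = 2 each, edgeR adjusted p = 3.78e-09). MOLT-4 had 2 and 3 counts with ACBI-1, against 10 and 7 counts with DMSO, too few to pass the filter. These groups did not overlap either, and the ratio of their summed counts was 0.290 (exact 95% interval 0.0837 to 0.819, counting error only). In DMSO, TNF was 5.89 ± 0.19 log2 units higher in DND-41 than in MOLT-4, given as a description because it passed the filter only through DND-41. Its MOLT-4 level was 1.66% of the DND-41 level, while 5 genes restricted to DND-41 stood at 0.119% and 0.299% in the same 2 MOLT-4 libraries.

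LTA, which lies next to TNF and encodes lymphotoxin alpha, did not pass the test in DND-41. It stood at 4.37 and 4.19 CPM with ACBI-1, against 4.73 and 4.52 CPM with DMSO. The ACBI-1 libraries lay just below the DMSO libraries, with a log2 fold change of -0.10 ± 0.18 (adjusted p = 0.839). The ratio of summed counts was 0.925 (exact 95% interval 0.749 to 1.14, counting error only). MOLT-4 held 6 and 1 counts with ACBI-1, against 7 and 8 counts with DMSO, and was not tested. In DMSO, LTA was 3.56 ± 0.31 log2 units higher in DND-41 than in MOLT-4, again a description.

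LTB, the membrane anchor of the lymphotoxin heterotrimer, was the member whose response differed between the lines in the test of the difference. In DND-41 it stood at 124 and 142 CPM with ACBI-1, against 126 and 130 CPM with DMSO. These groups overlapped, and the log2 fold change was 0.07 ± 0.07 (adjusted p = 0.631). In MOLT-4 it stood at 5.85 and 6.47 CPM with ACBI-1, against 9.22 and 11.3 CPM with DMSO, with no overlap. There LTB fell by 0.74 ± 0.14 on the log2 scale (adjusted p = 0.000681). The DND-41 response minus the MOLT-4 response was 0.79 ± 0.15 log2 units (interaction of treatment and line over 8 libraries, edgeR adjusted p = 0.00720). Of all genes, 0.641% passed, 0.442% with a positive and 0.199% with a negative difference. TNF, LTA, TNFRSF1B and TNFRSF10A entered this test only through DND-41, with SEs of 0.63 to 1.69, and could hardly pass. Their lack of a call is therefore no measure of a shared response. LTB was the only 1 of the 9 members tested to pass. The call was lost without MOLT-4 ACBI-1 replicate 1 (0.75, adjusted p = 0.0960) and without MOLT-4 DMSO replicate 2 (0.67, adjusted p = 0.103), in a range of 2.37e-06 to 0.220 over 15 alternatives. LTBR, the receptor of the heterotrimer, had 1 count in 1 MOLT-4 library with ACBI-1 and 0 in the other 7 libraries.

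LTA, TNF and LTB are neighbours on chromosome 6, in the class III region of the major histocompatibility complex. Of 11 further genes listed from that region, 10 were tested in DND-41. None passed there with edgeR or DESeq2, although 2 were lower at an unadjusted p below 0.05. Of all genes tested, 9.83% passed with edgeR in DND-41 and 10.8% in MOLT-4. In MOLT-4, 1 of 9 fell with edgeR and none with DESeq2. This was LST1, a leukocyte transcript next to LTB, with 6.71 ± 0.0172 CPM with ACBI-1 and 9.44 ± 0.346 CPM with DMSO (SD, n = 2 each), which fell by 0.50 ± 0.13 on the log2 scale (adjusted p = 0.0147). NFKBIL1, on the other side, next to LTA, had log2 fold changes of -0.08 ± 0.10 in DND-41 (adjusted p = 0.755) and 0.11 ± 0.13 in MOLT-4 (adjusted p = 0.689).

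**Figure D3:**
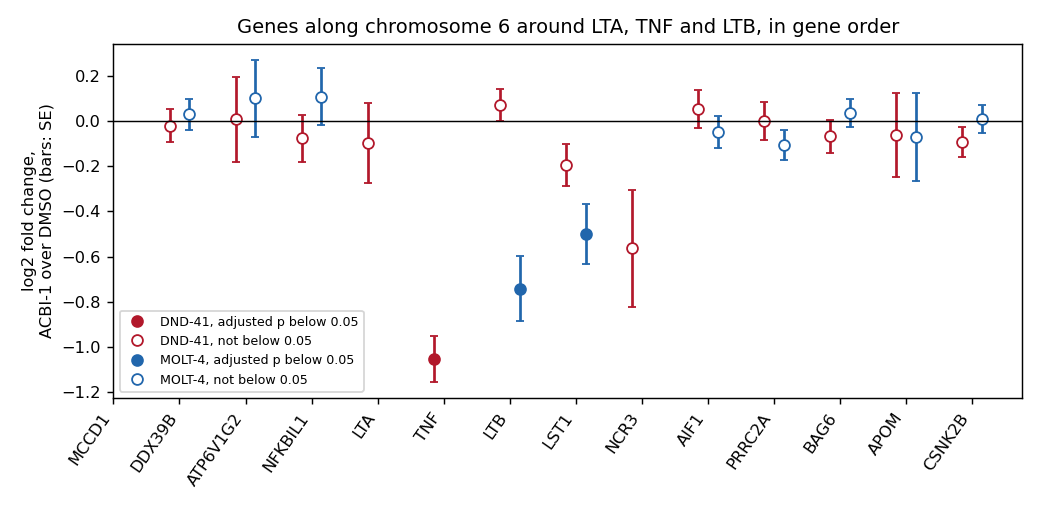
Log2 fold change, ACBI-1 over DMSO, with its SE, for genes around LTA, TNF and LTB in their order on chromosome 6, without distances. TNF in DND-41, at -1.06, and LTB and LST1 in MOLT-4, at -0.74 and -0.50, are past the threshold.

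The 250 bases upstream of each of these 3 genes are shown because the genes are neighbours with unlike responses. The sequences are RefSeq's for GRCh38.p14, 5′ to 3′ on the strand of the gene, while the counts were made on hg19. Capitals mark matches, on either strand, to the motifs searched, which were κB (3 G, any 2 bases, then TTTCC), AP-1 (TGANTCA), the NFAT core (GGAAAA), RUNX (TGTGGT), an E-box (CAGCTG), the ETS core (CCGGAA) and the TATA box (TATAAA). LTA has 2 listed starts, of which the one with a TATA box is printed, and LTB has 2 starts 1 base apart.
TNF, chr6:31575315-31575564, plus strand: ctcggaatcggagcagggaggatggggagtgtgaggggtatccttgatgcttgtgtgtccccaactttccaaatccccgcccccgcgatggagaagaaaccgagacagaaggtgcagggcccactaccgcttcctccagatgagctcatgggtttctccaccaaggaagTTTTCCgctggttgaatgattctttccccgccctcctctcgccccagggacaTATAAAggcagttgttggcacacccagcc
LTA, chr6:31572039-31572288, plus strand: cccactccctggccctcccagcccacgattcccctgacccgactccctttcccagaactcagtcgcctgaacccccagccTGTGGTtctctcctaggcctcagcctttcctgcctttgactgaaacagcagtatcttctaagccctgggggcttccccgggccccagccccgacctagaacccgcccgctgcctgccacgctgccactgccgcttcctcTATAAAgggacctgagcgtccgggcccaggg
LTB, chr6:31582426-31582675, minus strand: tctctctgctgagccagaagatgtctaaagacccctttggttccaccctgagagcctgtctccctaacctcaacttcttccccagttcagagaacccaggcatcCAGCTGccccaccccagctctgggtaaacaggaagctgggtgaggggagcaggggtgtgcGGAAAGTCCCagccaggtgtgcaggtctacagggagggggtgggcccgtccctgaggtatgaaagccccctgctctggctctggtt

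TNF had a TATA box beginning at -29 from the start and an NFAT core on the opposite strand at -81. The printed LTA start had a TATA box at -31 and a RUNX match at -170, while the other start held neither, and an E-box at -121. LTB had no TATA box, but a κB match on the opposite strand at -86 and an E-box at -146. Over all 27305 RefSeq promoters of this length, 11.1% held the TATA box, 21.4% the NFAT core, 10.9% RUNX, 13.8% the E-box and 1.73% κB. AP-1, in 6.60%, and the ETS core, in 14.8%, were in none of the 3 windows. A match describes the letters only.

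The TNF mRNA is also known for AU-rich repeats in its 3′ untranslated region, which bind decay factors such as ZFP36 (tristetraprolin). The GENCODE 29 transcript held 9 copies of ATTTA and 5 of the nonamer TTATTTATT within 799 bases. The densest 30 bases, at positions 462 to 491 of that region on chromosome 6, are shown with ATTTA in capitals.
TNF, 30 bases: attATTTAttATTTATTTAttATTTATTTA
The nonamer stood in 7.13% of the 3′ untranslated regions of 19146 genes, and among the members also in LTA with 1 copy and TNFRSF10B with 2. ZFP36 itself fell in both lines. It averaged 18.6 ± 0.377 CPM with ACBI-1 and 32.1 ± 0.932 CPM with DMSO in DND-41, a fall of 0.77 ± 0.09 on the log2 scale (adjusted p = 2.02e-07). In MOLT-4 it averaged 28.1 ± 2.61 CPM with ACBI-1 and 44.95 ± 0.0515 CPM with DMSO, a fall of 0.69 ± 0.08 (adjusted p = 1.14e-06). Of 15 genes listed for shedding and mRNA turnover of TNF, 1 of 13 tested fell in DND-41 and 2 of 14 in MOLT-4. Among all genes tested, 6.05% fell in DND-41 and 6.94% in MOLT-4. The other gene of the list in MOLT-4 was RC3H1 (roquin-1), which fell by 0.41 ± 0.11 (adjusted p = 0.0121). None rose with edgeR, while at an unadjusted p below 0.05 2 were higher in DND-41 and 0 in MOLT-4, and DESeq2 called 1 higher in DND-41 and 0 in MOLT-4. ADAM17, the protease that sheds TNF and its receptors, had log2 fold changes of 0.12 ± 0.08 in DND-41 (adjusted p = 0.463) and 0.04 ± 0.09 in MOLT-4 (adjusted p = 0.866).

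TNFSF10, the ligand TRAIL, fell in both lines. In DND-41 it stood at 58.8 and 54.7 CPM with ACBI-1, against 73.4 and 70.2 CPM with DMSO, and fell by 0.32 ± 0.07 on the log2 scale (adjusted p = 0.00299). In MOLT-4 it had 21 and 28 counts with ACBI-1, against 51 and 38 counts with DMSO, and fell by 0.89 ± 0.28 (adjusted p = 0.0426). The groups overlapped in neither line, but the MOLT-4 call was lost under 7 of 12 alternatives, DESeq2 and scaling by total counts (adjusted p = 0.0690) among them, with adjusted p between 0.0167 and 0.474. The difference between the responses was 0.54 ± 0.26 log2 units and did not pass (adjusted p = 0.643). In DMSO, TNFSF10 was 4.96 ± 0.12 log2 units higher in DND-41 than in MOLT-4 (adjusted p = 3.01e-23). FASLG, the ligand of FAS, had 1 count in each DND-41 library with ACBI-1 and 0 in the other 6 libraries, so a response was not detectable at this depth.

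TNFRSF1A, the death-domain receptor of TNF, was the member with the smallest p in either line. It stood at 36.3 and 38.9 CPM in DND-41 with ACBI-1, against 73.0 and 66.9 CPM with DMSO. In MOLT-4 it stood at 41.2 and 40.5 CPM with ACBI-1, against 90.4 and 94.9 CPM with DMSO. The 4 ACBI-1 libraries of the 2 lines lay below all 4 DMSO libraries. TNFRSF1A fell by 0.88 ± 0.08 on the log2 scale in DND-41 (adjusted p = 7.63e-10) and by 1.19 ± 0.07 in MOLT-4 (adjusted p = 5.10e-12). The difference between the responses, 0.29 ± 0.10, had an unadjusted p of 0.00993 and did not pass (adjusted p = 0.360). In DMSO the log2 difference, DND-41 over MOLT-4, was -0.41 ± 0.07 (adjusted p = 9.54e-06), and between the ACBI-1 libraries it was -0.12 and did not pass (adjusted p = 0.173). Its 250 upstream bases are shown as the promoter of the member with the smallest p, and held none of the motifs searched.
TNFRSF1A, chr12:6342077-6342326, minus strand: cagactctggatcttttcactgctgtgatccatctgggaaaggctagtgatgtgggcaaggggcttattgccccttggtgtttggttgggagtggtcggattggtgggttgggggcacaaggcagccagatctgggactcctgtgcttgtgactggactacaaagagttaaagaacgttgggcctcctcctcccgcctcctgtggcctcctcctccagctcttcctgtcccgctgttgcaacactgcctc

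TNFRSF1B, the TNF receptor without a death domain, could be tested in DND-41 only. It stood at 7.80 and 8.38 CPM there with ACBI-1, against 15.1 and 13.9 CPM with DMSO. The groups did not overlap, and TNFRSF1B fell by 0.83 ± 0.12 on the log2 scale (adjusted p = 1.07e-05). MOLT-4 had 1 and 2 counts with ACBI-1, against 3 and 1 counts with DMSO. In DMSO the summed counts were 588 in DND-41 and 4 in MOLT-4. Their scaled ratio was 141 (exact 95% interval 54.7 to 519, counting error only). This is a description, because TNFRSF1B passed the filter only through DND-41. Its MOLT-4 level, from 4 counts, was 0.709% of the DND-41 level, and 5 genes restricted to DND-41 stood at 0.119% and 0.299% in the same MOLT-4 libraries. With so few counts, the level of TNFRSF1B cannot be told apart from that of these genes.

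FAS, the receptor of FASLG, fell in both lines. It stood at 6.92 and 7.99 CPM in DND-41 with ACBI-1, against 11.5 and 10.4 CPM with DMSO. MOLT-4 stood at 6.55 and 6.73 CPM with ACBI-1, against 12.5 and 12.4 CPM with DMSO. No ACBI-1 library of either line reached a DMSO library. FAS fell by 0.54 ± 0.13 on the log2 scale in DND-41 (adjusted p = 0.00682) and by 0.92 ± 0.13 in MOLT-4 (adjusted p = 1.08e-05), and the difference between the responses was 0.36 ± 0.18 (adjusted p = 0.681). The DND-41 call was lost under 5 of 12 alternatives, with adjusted p between 0.000525 and 0.233. In DMSO the log2 difference, DND-41 over MOLT-4, was -0.19 ± 0.12 (adjusted p = 0.163). ACTA2 overlaps FAS in GENCODE 29, and whether the counting used strand is not given in the sources used here. ACTA2 had 20 and 33 counts in DND-41 with ACBI-1, against 51 and 39 with DMSO, where FAS had 141 and 166 with ACBI-1 and 234 and 209 with DMSO. In MOLT-4 ACTA2 had 7 and 9 counts with ACBI-1, against 8 and 7 with DMSO.

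The TRAIL receptors TNFRSF10A (DR4) and TNFRSF10B (DR5) fell where they could be tested. TNFRSF10A had 20 and 18 counts in DND-41 with ACBI-1, against 49 and 46 counts with DMSO. The groups did not overlap, and it fell by 1.33 ± 0.30 on the log2 scale (adjusted p = 0.00252). This call was kept under 8 of 12 alternatives. MOLT-4 had 0 counts with ACBI-1, against 2 and 1 counts with DMSO. With ACBI-1 the summed counts were 38 in DND-41 and 0 in MOLT-4. The scaled ratio had an exact 95% lower limit of 9.37 (counting error only). This too is a description, because TNFRSF10A passed the filter only through DND-41. TNFRSF10B stood at 5.20 and 4.62 CPM in DND-41 with ACBI-1, against 9.11 and 9.53 CPM with DMSO, and fell by 0.91 ± 0.15 (adjusted p = 6.49e-05). In MOLT-4 it had 61 and 55 counts with ACBI-1, against 107 and 75 counts with DMSO, and fell by 0.68 ± 0.20 (adjusted p = 0.0292). The 2 MOLT-4 DMSO libraries lay far apart, and without the higher, replicate 1, the log2 fold change was -0.40. The MOLT-4 call of TNFRSF10B was kept under only 5 of 12 alternatives. It was lost with DESeq2 and with edgeR after scaling by total counts (adjusted p = 0.0631). The DND-41 call of TNFRSF10B was kept under 9 of 12. The difference between the TNFRSF10B responses was -0.255 ± 0.25 (adjusted p = 0.890). In DMSO, TNFRSF10B was 0.99 ± 0.16 log2 units higher in DND-41 than in MOLT-4 (adjusted p = 3.98e-06). The 2 genes are close paralogs and overlap other annotated genes, so that some of their reads may be shared. RHOBTB2, which overlaps TNFRSF10B, had 201 and 257 counts in DND-41 with ACBI-1, against 315 and 339 with DMSO, and 366 and 364 counts in MOLT-4 with ACBI-1, against 379 and 403 with DMSO. AC100861.1, which overlaps TNFRSF10A, had 14 and 24 counts in DND-41 with ACBI-1, against 22 and 29 with DMSO, and 0 in MOLT-4.

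Between the lines in DMSO, 9 members entered the test, but TNF, LTA, TNFRSF1B and TNFRSF10A were too low in MOLT-4 and entered it only through DND-41, where they are high, so their direction was set by the filter on low counts and no count or median is drawn over the 9. Of the 5 members with at least 10 counts in every library, LTB, TNFSF10 and TNFRSF10B were higher in DND-41, TNFRSF1A was lower and FAS did not pass. Of all genes tested, 64.4% differed, 31.6% higher and 32.8% lower in DND-41. This comparison shares its DMSO libraries with the treatment comparisons.

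Per kilobase of merged exons, LTB led in DND-41 and TNFRSF1A in MOLT-4. In DND-41 with DMSO, LTB stood at 83.5 ± 2.01 CPM per kilobase (SD, n = 2), ahead of TNFSF10 (20.7 ± 0.635), TNFRSF1A (17.5 ± 1.08), TNF (15.8 ± 0.634) and TNFRSF1B (3.86 ± 0.219). LTA (2.66 ± 0.0852), FAS (2.57 ± 0.191), TNFRSF10B (1.81 ± 0.0579) and TNFRSF10A (0.796 ± 0.0309) followed, with FASLG at 0. LTA and FAS were the neighbours in this order whose libraries overlapped. In MOLT-4 with DMSO, TNFRSF1A stood at 23.1 ± 0.792 CPM per kilobase, ahead of LTB (6.67 ± 0.940), FAS (2.93 ± 0.0114), TNFRSF10B (0.910 ± 0.224) and TNFSF10 (0.661 ± 0.135). TNF (0.262 ± 0.0648), LTA (0.223 ± 0.0214), TNFRSF1B (0.0274 ± 0.0193) and TNFRSF10A (0.0262 ± 0.0123) followed, with FASLG at 0. The overlapping neighbours there were TNFRSF10B with TNFSF10, TNF with LTA, and TNFRSF1B with TNFRSF10A.

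**Figure D4:**
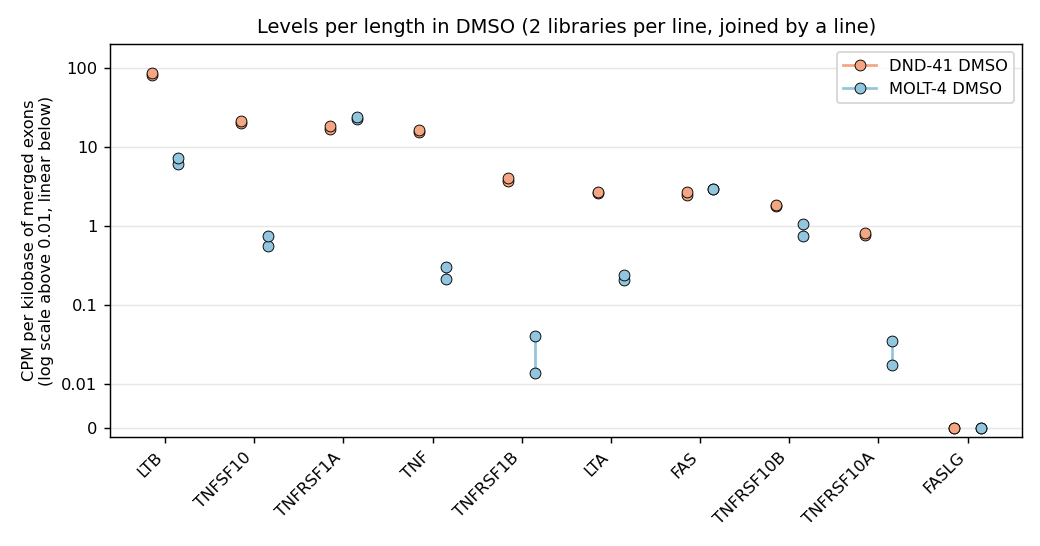
Level of each member in the 2 DMSO libraries of DND-41 and of MOLT-4, as TMM-scaled CPM per kilobase of merged exons, logarithmic above 0.01 and linear below. TNFRSF1A and FAS lie at similar heights in the 2 lines, while TNF, TNFRSF1B and TNFRSF10A lie at 1.66%, 0.709% and 3.29% of their DND-41 level in MOLT-4.

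The genes whose pattern over the 8 libraries was most like that of TNF were SLC1A4, an amino acid transporter, SH3GLB1 and GBP4, an interferon-induced GTPase, with Pearson's r of 0.999, 0.999 and 0.998 on log2 CPM among 10257 genes. For FAS they were GCH1, which starts tetrahydrobiopterin synthesis, LINC00657, a long non-coding RNA, and HNRNPA0, with r of 0.984, 0.981 and 0.976. These values are descriptions over 8 libraries that share 2 lines and 2 treatments. TNF differed by 5.89 log2 units between the lines in DMSO and by 1.06 between the treatments in DND-41. Its r values therefore mostly describe the difference between the lines, and say little of a shared response to ACBI-1.

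Other genes of the pathway were taken from lists. To set beside each list below, 6.05% of all genes tested fell and 3.78% rose in DND-41. In MOLT-4 6.94% fell and 3.9% rose. With DESeq2, 442 of all genes fell and 222 rose in DND-41, and 520 fell and 234 rose in MOLT-4. Counts at an unadjusted p below 0.05 have no such share beside them. Of 13 other ligands, 1 of 6 tested rose in DND-41 and 1 of 5 in MOLT-4, and none fell. In both lines this was TNFSF4 (OX40 ligand). It averaged 8.58 ± 0.558 CPM with ACBI-1 and 5.86 ± 0.630 CPM with DMSO in DND-41 (SD, n = 2 each), a rise of 0.57 ± 0.15 on the log2 scale (adjusted p = 0.0108). In MOLT-4 it averaged 1.88 ± 0.169 CPM with ACBI-1 and 0.928 ± 0.0748 CPM with DMSO, a log2 rise of 1.01 ± 0.30 (adjusted p = 0.0307). DESeq2 called 0 of these ligands in either line, and at an unadjusted p below 0.05 1 was lower in each line.

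Of 24 other receptors, 4 of 10 tested fell in DND-41 and none rose, while in MOLT-4 5 of 8 fell and 1 rose. TNFRSF12A had 9 and 7 counts in DND-41 with ACBI-1, against 23 and 44 with DMSO. TNFRSF4 had 4 and 4 counts in MOLT-4 with ACBI-1, against 20 and 15 with DMSO. Both passed the filter on low counts only through DMSO, so that filter set their direction. The counts and medians of this list include them and are descriptions. TNFRSF8 (CD30) averaged 29.9 ± 1.60 CPM with ACBI-1 and 39.3 ± 0.717 CPM with DMSO in DND-41, and fell by 0.38 ± 0.08 on the log2 scale (adjusted p = 0.00199). In MOLT-4 it averaged 10.2 ± 0.403 CPM with ACBI-1 and 14.3 ± 1.39 CPM with DMSO, and fell by 0.49 ± 0.12 (adjusted p = 0.00651). RELT also fell in both, by 0.35 ± 0.10 in DND-41 (adjusted p = 0.0177) and 0.28 ± 0.09 in MOLT-4 (adjusted p = 0.0398). In DND-41 the others were TNFRSF12A, the TWEAK receptor, at 0.389 ± 0.0738 CPM with ACBI-1 and 1.66 ± 0.744 CPM with DMSO, and TNFRSF10D, a TRAIL receptor with a truncated death domain, at 0.775 ± 0.334 CPM with ACBI-1 and 2.08 ± 0.338 CPM with DMSO. In MOLT-4 they were TNFRSF14 (HVEM) and TNFRSF25 (DR3), which fell by 0.30 ± 0.09 and 0.78 ± 0.24 (adjusted p = 0.0316 and 0.0360), and TNFRSF4, at 0.203 ± 0.00270 CPM with ACBI-1 and 0.902 ± 0.181 CPM with DMSO. TNFRSF21 (DR6) ran the other way in MOLT-4, at 27.4 ± 1.58 CPM with ACBI-1 and 15.6 ± 0.298 CPM with DMSO, a rise of 0.80 ± 0.09 (adjusted p = 1.11e-06). The median of this list was -0.36 in DND-41 and -0.29 in MOLT-4, but DESeq2 called 1 receptor lower in DND-41, and 1 higher and 0 lower in MOLT-4.

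Downstream of the receptors, 2 of 15 tested genes of the death signalling complex fell in DND-41 and none rose, and in MOLT-4 3 of 16 fell and 1 rose. PEA15, a death-effector-domain protein, fell by 0.27 ± 0.07 in DND-41 (adjusted p = 0.0141) and 0.32 ± 0.07 in MOLT-4 on the log2 scale (adjusted p = 0.00376). CFLAR (c-FLIP), an inhibitor of caspase-8, rose in MOLT-4 by 0.39 ± 0.09 (adjusted p = 0.00718), and BID, which links caspase-8 to mitochondria, fell there by 0.23 ± 0.07 (adjusted p = 0.0370). FADD had log2 fold changes of -0.15 ± 0.13 in DND-41 and -0.03 ± 0.13 in MOLT-4, and CASP8 of -0.08 ± 0.07 in DND-41 and -0.16 ± 0.08 in MOLT-4, and neither passed. DESeq2 called 1 gene of the list lower in DND-41 and 2 lower in MOLT-4, and 0 higher, while at an unadjusted p below 0.05 1 was higher in DND-41.

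Of 23 TRAF, IAP and kinase adaptors, 2 fell in DND-41 and none rose, and 3 fell and 2 rose in MOLT-4. The DND-41 count lay near the share of all tested genes called there, 9.83%. In MOLT-4 that share was 10.8%. RNF31 (HOIP), the catalytic subunit of the linear ubiquitin ligase, fell by 0.25 ± 0.08 in DND-41 (adjusted p = 0.0282) and 0.26 ± 0.07 in MOLT-4 on the log2 scale (adjusted p = 0.0137). TRAF4 fell in DND-41 by 0.27 ± 0.08 (adjusted p = 0.0263). In MOLT-4 TRAF5 fell by 0.56 ± 0.10 (adjusted p = 0.000413) and OTULIN, the linear deubiquitinase, by 0.35 ± 0.09 (adjusted p = 0.0109). BIRC2 and BIRC3, the ubiquitin ligases cIAP1 and cIAP2 that restrain death from TNFRSF1A, rose there by 0.39 ± 0.09 and 0.46 ± 0.14 (adjusted p = 0.00276 and 0.0281). DESeq2 called none in DND-41, where 3 were higher and 3 lower at an unadjusted p below 0.05, and 1 higher and 1 lower in MOLT-4.

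Of 25 genes listed as induced by TNF through NF-κB, 2 of 14 tested rose and 3 fell in DND-41, and 1 of 14 rose and 2 fell in MOLT-4. IRF1, an interferon regulatory factor, averaged 217 ± 10.3 CPM with ACBI-1 and 145 ± 4.02 CPM with DMSO in DND-41, and rose by 0.60 ± 0.07 on the log2 scale (adjusted p = 7.32e-08). In MOLT-4 it averaged 134 ± 7.40 CPM with ACBI-1 and 103 ± 2.28 CPM with DMSO, and rose by 0.37 ± 0.06 (adjusted p = 0.000208). NFKBIA, the inhibitor IκBα and itself an NF-κB target, fell by 0.52 ± 0.08 in DND-41 (adjusted p = 7.41e-06) and 0.52 ± 0.08 in MOLT-4 (adjusted p = 8.30e-05). CD83 and the adhesion molecule ICAM1 fell in DND-41, by 0.55 ± 0.13 and 1.08 ± 0.25 (adjusted p = 0.00294 and 0.00305). TNFAIP3 (A20), the ubiquitin editor that damps TNF signalling, rose by 0.32 ± 0.07 in DND-41 (adjusted p = 0.00349) and fell by 0.24 ± 0.07 in MOLT-4 (adjusted p = 0.0361). DESeq2 called 2 higher and 2 lower in DND-41 and 1 higher and 1 lower in MOLT-4, and at an unadjusted p below 0.05 3 were higher and 4 lower in DND-41, and 3 higher and 2 lower in MOLT-4. The list held genes moving both ways, with a median of -0.0157 in DND-41 and 0.00615 in MOLT-4.

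**Figure D5:**
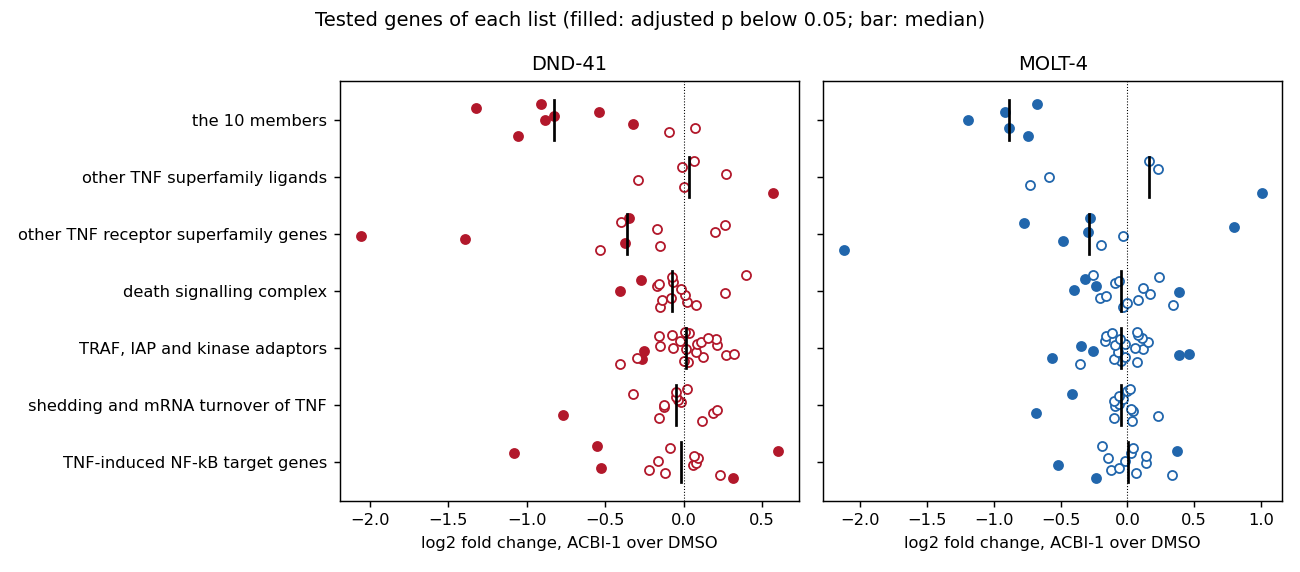
Log2 fold change, ACBI-1 over DMSO, of every tested gene of the members and 6 pathway lists in DND-41 and MOLT-4, with those at an adjusted p below 0.05 marked and the median of each list as a bar. The members' medians lie at -0.83 and -0.89, those of the other receptors at -0.36 and -0.29, and those of the remaining lists between -0.07 and 0.16. The medians of the other receptors include TNFRSF12A in DND-41 and TNFRSF4 in MOLT-4, which passed the filter only through DMSO.

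Of the markers of other cells, PRF1, NKG7 and PDGFRB passed edgeR's test in DND-41 and none did in MOLT-4 by edgeR, by DESeq2 or at an unadjusted p below 0.05. In DND-41 DESeq2 called only 1 of the 2 NK cell markers tested and 1 of the epithelial and fibroblast markers, each lower. The 8 NK cell markers summed to 26.2 to 28.99 CPM with ACBI-1 and 37.7 to 38.1 CPM with DMSO in DND-41, and to 2.11 to 3.43 CPM with ACBI-1 and 3.25 to 4.38 CPM with DMSO in MOLT-4. PRF1 and NKG7, genes of cytotoxic granules, were the 2 tested in DND-41, and fell by 0.81 ± 0.13 and 0.31 ± 0.09 on the log2 scale (adjusted p = 7.15e-05 and 0.0295), while NCR1 and KLRC1 were at 0 in every library. The 6 B-cell markers summed to 1524 to 1673 CPM with ACBI-1 and 1676 to 1758 CPM with DMSO in DND-41, nearly all of it CD79A, with 0 of 3 tested called by edgeR or DESeq2 and 1 lower at an unadjusted p below 0.05, and to 12.1 to 14.0 CPM with ACBI-1 and 10.5 to 17.5 CPM with DMSO in MOLT-4. The 8 epithelial and fibroblast markers summed to 297 to 298 CPM with ACBI-1 and 346 to 373 CPM with DMSO in DND-41, mostly VIM, and to 357 to 366 CPM with ACBI-1 and 368 to 391 CPM with DMSO in MOLT-4. PDGFRB fell in DND-41 by 0.62 ± 0.09 (adjusted p = 4.05e-06), with COL1A2 and KRT18 at 0 in every library. Of the T-lineage markers, edgeR called 2 of 9 tested higher in DND-41, and 1 of 10 higher and 2 lower in MOLT-4. CD3G rose by 0.42 ± 0.07 in DND-41 and 0.39 ± 0.07 in MOLT-4. CD2 rose in DND-41 by 0.45 ± 0.11, and CD5 and CD7 fell in MOLT-4 by 0.54 ± 0.06 and 0.21 ± 0.07. DESeq2 called 1 higher in DND-41, and 1 higher and 1 lower in MOLT-4. At an unadjusted p below 0.05, 3 were higher in DND-41, and 4 higher and 2 lower in MOLT-4. The part of these markers in the members' responses was not tested. In RNA of a whole culture, fewer cells of a kind and less RNA per cell cannot be told apart.

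In the authors' deposited table for DND-41, read as ACBI-1 over DMSO, the log2 fold changes of TNF, TNFRSF1A and TNFRSF1B were -1.05, -0.88 and -0.83, with adjusted p of 4.21e-10, 4.21e-14 and 0.000592. In the same authors' deposited table FAS and TNFRSF10A, at -0.54 and -1.33, had adjusted p of 0.126 and 0.0843. The authors' deposited table for MOLT-4 has the opposite sign, DMSO over ACBI-1. Turned round, the authors' deposited table gave -1.18 for TNFRSF1A, -0.91 for FAS and -0.73 for LTB, with adjusted p of 1.32e-34, 0.000333 and 0.0235. For TNFSF10 and TNFRSF10B the authors' deposited table gave -0.88 and -0.67, with adjusted p of 0.394 and 0.306.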

How the data were processed

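RNA of DND-41 and MOLT-4 cultures was sequenced with strand-specific, paired-end kits, according to the labels' protocols. The authors deposited raw read counts for 63677 genes, in 1 table per line. The submitters' processing notes name STAR 2.5.2a, featureCounts, DESeq2 1.12.4 and hg19, with neither role nor order given. The authors also deposited a table per line with log2 fold changes and their standard errors, a test score (the Wald statistic), p-values and a mean signal per gene (base mean), per the file headers. Their sign was read from the correlation with the fits below, which was positive in DND-41 and negative in MOLT-4.

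Here, counts were tested with edgeR 4.0.16 in R 4.3.3 after TMM scaling and filterByExpr, by the quasi-likelihood F-test with Benjamini-Hochberg adjustment over all genes tested, at 5%. The treatment comparison of a line used its 4 libraries, and the difference between responses and that between lines used all 8. Exon lengths came from GENCODE 29 (97.0% of genes tested had one). Of the 10 members, 8 had a RefSeq promoter. DESeq2 1.42.0, other scalings and filters, a replicate block, a threshold of 1% and leaving out each library were the alternatives.

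Members, lists and tests were chosen with earlier results of these data known. All 10 members are described. From each list, up to 6 genes per line past the threshold with at least 1 CPM are named, and the 3 genes most like TNF or FAS. TNFRSF4, NFKBIL1, ADAM17, FADD, CASP8, CD3E and the markers at 0 fall outside this rule and were chosen after their values were seen. 1 gene that the rule names is not reported here. Nothing in the labels tells whether replicates were grown separately, so the p-values reflect variation between libraries that may be technical. An exact permutation test of 2 against 2 libraries cannot reach 0.05.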

Additional observations from a re-analysis of the deposited data

Results flagged for a closer look

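The response of LTB differed between the lines in the test of the difference itself, by 0.79 ± 0.15 log2 units, DND-41 response minus MOLT-4 response (interaction, edgeR adjusted p = 0.00720). LTB averaged 133 ± 12.6 CPM with ACBI-1 and 128 ± 3.08 CPM with DMSO in DND-41, and 6.16 ± 0.441 CPM with ACBI-1 and 10.2 ± 1.44 CPM with DMSO in MOLT-4 (SD, n = 2 each).

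TNFAIP3 differed in the same test, by 0.53 ± 0.10 log2 units (edgeR adjusted p = 0.00881), with opposite directions in the lines. It averaged 76.1 ± 5.23 CPM with ACBI-1 and 61.8 ± 1.21 CPM with DMSO in DND-41, and 48.9 ± 2.70 CPM with ACBI-1 and 57.2 ± 2.95 CPM with DMSO in MOLT-4. Of 15 alternatives, 12 kept this call, with adjusted p between 3.07e-06 and 0.174. Groups of 2 libraries were not examined for outliers.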

How the results depend on the processing

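Members past the threshold numbered 7 in DND-41, 5 in MOLT-4 and 1 in the difference between responses. Between the lines no count of members is drawn, because TNF, LTA, TNFRSF1B and TNFRSF10A had passed the filter only through DND-41. In MOLT-4, DESeq2 called 3, scaling by total counts 3 and a threshold of 1% 3. Without a filter on low counts 0, 1 and 0 were called in DND-41, MOLT-4 and the difference. Leaving out a library left 1 in its group. The members called in each line and in the difference then depended on the library left out, as described above.

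Over all genes, 1378, 1568, 100 and 10050 passed in these comparisons. DESeq2 called 664 in DND-41 and 754 in MOLT-4, and a threshold of 1% left 763, 879 and 50 in the first 3. Without a filter 2, 39 and 13 passed. More genes entered those fits, and the cause of the lower counts was not tested. Leaving out a library gave 3 to 632 in DND-41, 0 to 1430 in MOLT-4, 49 to 138 in the difference and 9154 to 10442 between the lines, with fewer samples in each fit. A replicate block gave 7, 5 and 1 members, and over all genes 2230 in DND-41, 2228 in MOLT-4 and 302 in the difference. These counts exceeded those of the main fits. Same-numbered libraries deviated together weakly over all tested genes (r = 0.0422 in DND-41, 0.0434 in MOLT-4), which cannot settle whether they are pairs. The numbers were not taken as pairs in the main fits.

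Signs turned for values that had not passed. Over the fits that leave out a library, LTB in DND-41 lay between -0.024, without DND-41 ACBI-1 replicate 2, and 0.16. In the difference between responses, TNFRSF1B lay between -1.33 and 0.14, positive without MOLT-4 ACBI-1 replicate 2 (0.13) or DMSO replicate 2, and TNFRSF10B between -0.50 and 0.0049, which was reached without MOLT-4 DMSO replicate 2. FAS between the lines was 0.17 in the ACBI-1 libraries. The cause was not tested. TNF in DND-41 lay between -1.12 and -0.99 and TNFRSF1A in MOLT-4 between -1.22 and -1.16 over 12 alternatives. Depth left FASLG in both lines, and TNF, LTA, TNFRSF1B and TNFRSF10A in MOLT-4, too low to test.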
